A study of Mus musculus with 3 samples.

Results

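The interferon-stimulated genes described here are a set of 41 genes named by symbol, of which 39 had a row among the 32285 genes of the deposited count tables. Mx1 and Mx2 were not analysed here. Of the 39 genes, 31 form a type I-like group, known mainly as targets of interferon alpha and beta, and 8 form a group of guanylate-binding proteins (GBPs) and immunity-related GTPases, known mainly as targets of interferon gamma. They were measured in 3 droplet single-cell RNA-seq libraries from lungs of mice labelled 3 months old, with 1 library for each treatment label (Control, Model, PD00). According to the series title, immune cells were induced with ovalbumin (OVA), an egg white protein used to sensitise the airways of mice, and the agent PD00 is a peptidomimetic, a compound built to resemble a peptide. The tissue label calls the lung healthy in all 3 libraries, and the labels do not state how many mice gave each library or whether the PD00 mice also received ovalbumin.

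With 1 library a group, no difference below had a replicate check and no test between treatments was possible. Levels are unique molecular identifiers (UMIs, one per captured RNA molecule) of a gene per 1000000 UMIs of the cells summed, written as CPM. A ratio of 2 libraries is given with its exact 95% interval, which covers counting error only and says nothing of the spread between mice. A gene counted as higher or lower when the ratio was at least 1.5-fold and both sums together held at least 50 UMIs, and it was within the threshold otherwise. The ratios of Model over Control and of PD00 over Model share the Model library, so a low or a high value there moves them in opposite directions.

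After filtering, 9363 Control, 11289 Model and 9368 PD00 cells remained, with 77144980, 79764502 and 76849145 UMIs and a median of 5231, 4048 and 4576 UMIs per cell. Of these cells, 8668, 8365 and 7547 were assigned to a marker-gated cell class. Clusters in which no class reached 25% of the cells held 1.46%, 13% and 3.01% of the libraries and were kept out of the classes. Cells in no class made up 7.42%, 25.9% and 19.4% of the libraries, and their summed type I-like level stood at 2723 CPM in Control, 1451 in Model and 699.9 in PD00. Pairs of libraries shared 37 (Control and Model), 43 (Model and PD00) and 31 (Control and PD00) cell barcodes, and without the 194 kept cells that carry them PD00 over Model was below 1 for the same number of genes as with them, 38 of 39.

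Type I interferons bind the Ifnar1 and Ifnar2 receptor and, through the kinases Jak1 and Tyk2, activate ISGF3, a factor with Stat2 and Irf9 among its subunits that binds the interferon-stimulated response element (ISRE) in the promoters of antiviral genes. Interferon gamma, made mainly by T cells and natural killer (NK) cells, binds the Ifngr1 and Ifngr2 receptor and acts through the gamma-activated site (GAS) in promoters. In the lung the products of these genes degrade viral RNA, block viral entry and translation, and act on vacuoles that hold intracellular microbes.

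RefSeq promoter windows on GRCm38.p6 were found for 28 of the 41 genes, in 33 windows that run from 250 bases before to 50 bases after a transcription start. The ISRE letters, GAAA, NN and GAAA in a row with N for any base, on either strand occurred in 20 of the 33 windows (60.6%), against 3.44% of all 32851 promoter windows of that length. They occurred in windows of 13 of the 22 type I-like genes with a window and of 6 of the 6 GBP and GTPase genes. The GAS letters TTCNNNGAA on either strand occurred in 9 of the 33 windows (27.3%), against 8.30% of all windows, and 6 windows held both motifs. A match is a description of letters and not a measured binding site. The 250 bases upstream of 7 genes are shown because they span the patterns of the set: a type I-like gene with overlapping ISRE matches, Ifit1, Ifit3 and Ifit3b with paired ones, and GBP and GTPase genes with 1 ISRE match, without and with GAS letters, beside Irf1, which held GAS letters alone. Each sequence is given 5′ to 3′ on the gene's strand, and capitals mark the ISRE or GAS letters.
Isg15: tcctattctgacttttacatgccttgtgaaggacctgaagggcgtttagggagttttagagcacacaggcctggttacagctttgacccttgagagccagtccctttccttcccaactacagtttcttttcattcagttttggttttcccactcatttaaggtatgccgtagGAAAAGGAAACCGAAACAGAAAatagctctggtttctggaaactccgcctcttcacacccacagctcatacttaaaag
Ifit1: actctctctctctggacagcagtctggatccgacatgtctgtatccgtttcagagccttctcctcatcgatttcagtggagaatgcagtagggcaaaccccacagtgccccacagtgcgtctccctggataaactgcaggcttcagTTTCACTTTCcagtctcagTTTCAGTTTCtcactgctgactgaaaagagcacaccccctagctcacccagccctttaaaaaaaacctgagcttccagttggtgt
Ifit3: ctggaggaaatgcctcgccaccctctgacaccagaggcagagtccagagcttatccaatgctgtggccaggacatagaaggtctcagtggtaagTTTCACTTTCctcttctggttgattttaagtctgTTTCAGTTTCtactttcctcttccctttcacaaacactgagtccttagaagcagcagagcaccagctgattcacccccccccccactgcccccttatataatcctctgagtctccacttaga
Ifit3b: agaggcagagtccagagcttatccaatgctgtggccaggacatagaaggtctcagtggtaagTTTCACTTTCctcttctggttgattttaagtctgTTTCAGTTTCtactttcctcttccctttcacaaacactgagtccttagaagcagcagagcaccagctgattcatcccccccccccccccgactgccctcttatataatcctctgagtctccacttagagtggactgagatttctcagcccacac
Gbp2: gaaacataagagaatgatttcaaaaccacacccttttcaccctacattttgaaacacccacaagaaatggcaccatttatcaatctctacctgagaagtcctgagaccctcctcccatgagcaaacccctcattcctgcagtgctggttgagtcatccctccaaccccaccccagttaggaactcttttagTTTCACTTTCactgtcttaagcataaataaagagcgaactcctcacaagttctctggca
Igtp: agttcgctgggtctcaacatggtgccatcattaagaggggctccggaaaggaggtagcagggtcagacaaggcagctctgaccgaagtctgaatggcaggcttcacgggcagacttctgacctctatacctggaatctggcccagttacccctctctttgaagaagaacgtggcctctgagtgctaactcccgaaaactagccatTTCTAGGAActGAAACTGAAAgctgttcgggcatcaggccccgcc
Irf1: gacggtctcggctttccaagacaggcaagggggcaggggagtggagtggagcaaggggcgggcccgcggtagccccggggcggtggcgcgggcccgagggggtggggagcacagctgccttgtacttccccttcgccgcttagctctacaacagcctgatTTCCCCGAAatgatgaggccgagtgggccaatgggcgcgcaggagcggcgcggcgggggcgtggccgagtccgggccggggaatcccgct
These stretches lie at chr4:156200819-156201068 (minus strand), chr19:34640639-34640888, chr19:34583279-34583528, chr19:34607707-34607956, chr3:142620413-142620662, chr11:58199306-58199555 and chr11:53769764-53770013 (all plus strand). Isg15 held 3 ISRE matches, which run into each other, and Ifit1, Ifit3 and Ifit3b held 2 each. The windows of Ifit2, in the same family, held no ISRE letters. The Ifit3 and Ifit3b stretches were equal at 188 of 218 aligned bases (86.2%) at an offset of 32 bases. These neighbours on chromosome 19 are near-identical copies, so the split of counts between Ifit3 and Ifit3b is uncertain.

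Over all kept cells, the interferon-stimulated genes were lower in the PD00 library than in the Model library almost without exception. PD00 over Model was at least 1.5-fold lower for 27 of the 39 genes (21 of 31 type I-like, 6 of 8 GBP and GTPase) and at least 1.5-fold higher for 0, where 7.38% of all 15248 genes measured were lower and 3.46% higher. The ratio was below 1 for 38 of 39 genes, the exception being Irf1 at 1.01 (0.975 to 1.05). The median log2 ratio was -0.82 for the type I-like and -0.67 for the GBP and GTPase genes, against 0.00 for all genes measured. Model over Control was less uniform: 13 of 39 genes were at least 1.5-fold higher (9 type I-like, 4 GBP and GTPase) and 1, Irf1, was lower, where 12.4% of 15436 genes were higher and 18.2% lower. The median log2 ratio there was 0.33 for the type I-like and 0.51 for the GBP and GTPase genes, against -0.13 for all genes. PD00 over Control was at least 1.5-fold lower for 14 of 39 genes (13 type I-like, 1 GBP and GTPase) and higher for 0, where 19.8% of 15280 genes were lower and 10.5% higher. The median log2 ratio was -0.47 and -0.22 for the groups, against -0.14 for all genes.

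Sums over all cells move with the mix of cell classes as well as with the RNA per cell, and these cannot be told apart in such a sum. With every library given the same class mix, 15 of the 39 genes in place of 27 were at least 1.5-fold lower in PD00 than in Model, where 5.77% of all genes were, and the median log2 ratio was -0.50 for either group of genes. Over the same mix 9 in place of 14 genes were lower in PD00 than in Control, where 14.4% of all genes were, and the median of the GBP and GTPase genes changed sign, from -0.22 to 0.07. This mix was averaged over 16 classes and left out cells in no class. Some of these classes were small, with 20 cDC2 and 23 plasma cells in Control. Its reweighted sums are not UMI counts, so single ratios over it are given without an interval.

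**Figure D1:**
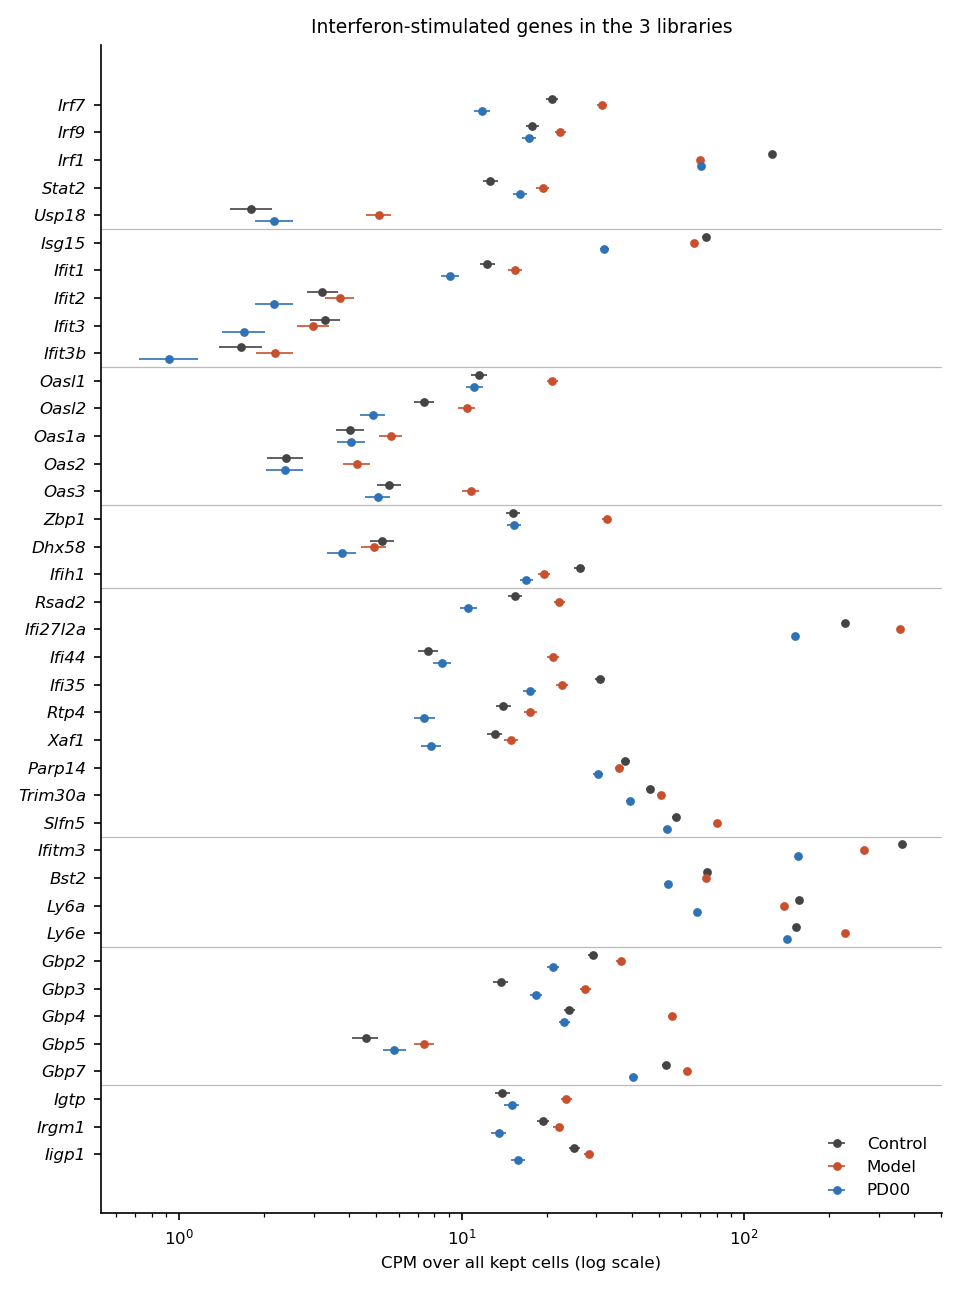
Level of each of the 39 interferon-stimulated genes over all kept cells of the Control, Model and PD00 libraries, in CPM on a log axis, with genes in rows grouped by role, 1 point per library and bars for the 95% counting interval. The PD00 point lies left of the Model point for 38 of the 39 genes, the exception being Irf1 at 69.9 in Model and 70.7 in PD00.

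Among the transcription factors and feedback genes, 3 of 5 were higher and 1 lower in Model than in Control, and 2 of 5 were lower in PD00 than in Model. Irf7, the factor that amplifies interferon alpha and beta production, stood at 20.8 CPM in Control, 31.5 in Model and 11.8 in PD00, so PD00 was the lowest library and lay 2.67-fold below Model (interval 2.47 to 2.88). Usp18, which removes Isg15 from proteins and damps signalling at the type I receptor, stood at 1.80, 5.09 and 2.17 CPM, 2.82-fold higher in Model than in Control (2.32 to 3.45). Model alone was high for Usp18, and PD00 over Control was 1.21 (0.957 to 1.52), an interval that spans 1. Irf1, a factor induced chiefly through GAS sites but counted here in the type I-like group, ran the other way. It stood at 126 CPM in Control against 69.9 in Model and 70.7 in PD00. Irf1 was thus 1.80-fold lower in Model (1.75 to 1.86) and 1.78-fold lower in PD00 (1.72 to 1.84) than in Control, with Model and PD00 together. With the class mix held equal no gene of the set, Irf1 included, was at least 1.5-fold lower in Model than in Control. Of all genes measured, 14.7% were lower under that mix. Stat2, a subunit of ISGF3, was 1.53-fold higher in Model than in Control (1.41 to 1.66), and Irf9, another subunit, was 1.26-fold higher (1.17 to 1.35), inside the threshold.

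The IFIT family and Isg15 had 0 of 5 genes past the threshold in either direction for Model over Control, and 5 of 5 lower for PD00 over Model. Isg15, a ubiquitin-like protein attached to other proteins, stood at 73.2 CPM in Control, 66.8 in Model and 32.1 in PD00. PD00 was the low library, 2.08-fold below Model (1.98 to 2.18) and 2.28-fold below Control (2.18 to 2.39). Ifit1, which binds viral RNA that lacks host cap methylation, stood at 12.4, 15.5 and 9.10 CPM, in the order Model, Control, PD00 from high to low. Ifit2, Ifit3 and Ifit3b, other members of the family, were 1.70-fold to 2.36-fold lower in PD00 than in Model, on 0.924 to 3.70 CPM in any library.

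In the OAS family, whose enzymes make 2′-5′-linked oligoadenylates that activate RNase L, 3 of 5 genes were higher in Model than in Control and 4 of 5 were lower in PD00 than in Model. Oasl1, which lacks that enzyme activity, had the most UMIs of the family, at 11.6, 21.0 and 11.1 CPM, so that Control and PD00 lay together and Model lay 1.81-fold above Control (1.67 to 1.97). With the class mix held equal this ratio for Oasl1 was 0.944, and the cause of the shift was not tested. Oasl2 stood at 7.36, 10.4 and 4.85 CPM, 2.15-fold lower in PD00 than in Model (1.90 to 2.43), and Oas1a alone of the family was within the threshold in all 3 comparisons. Oas3 (1.94-fold, 1.73 to 2.18) and Oas2 (1.78-fold, 1.48 to 2.14) were the other enzymes higher in Model than in Control. Of the 3 sensors of foreign nucleic acid, Zbp1, a sensor of Z-form nucleic acid that can start necroptosis, stood at 15.2 CPM in Control, 32.7 in Model and 15.4 in PD00. Model lay 2.15-fold above Control (2.01 to 2.31), and PD00 lay at the Control level, with a ratio of 1.01 (0.934 to 1.0995). The RNA helicases Ifih1 and Dhx58 did not share that pattern: Ifih1 stood at 26.2, 19.6 and 17.0 CPM and Dhx58 at 5.22, 4.89 and 3.77, both highest in Control.

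Among 9 other antiviral effectors, 2 were higher in Model than in Control and 6 were lower in PD00 than in Model. Ifi27l2a, a small protein of the interferon alpha-inducible family, had the most UMIs, at 228 CPM in Control, 358 in Model and 152 in PD00. Model lay 1.57-fold above Control (1.54 to 1.60) and PD00 2.36-fold below Model (2.31 to 2.41). Model over Control was 0.905, however, with the class mix held equal. Ifi44 stood at 7.63, 21.1 and 8.54 CPM, with Model alone high, 2.77-fold above Control (2.52 to 3.04) and 2.47-fold above PD00 (2.26 to 2.71). Rtp4, a chaperone for receptors that also restricts viruses, stood at 14.1, 17.5 and 7.39 CPM, so PD00 was low against both other libraries, 2.37-fold below Model (2.15 to 2.62) and 1.90-fold below Control (1.72 to 2.11). Rsad2 (viperin, which makes a chain-terminating nucleotide) was 2.10-fold lower in PD00 than in Model (1.93 to 2.29). Xaf1, a pro-apoptotic protein, was 1.92-fold lower (1.74 to 2.12) and Slfn5, a Schlafen family protein, 1.51-fold lower (1.45 to 1.57). Parp14, Trim30a and Ifi35 were within the threshold for PD00 over Model, at 1.19-fold to 1.30-fold lower.

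The 4 membrane proteins, which several cell types also express without interferon, had 0 genes past the threshold for Model over Control and 3 lower for PD00 over Model. Ifitm3, which blocks fusion of viruses in endosomes, stood at 364 CPM in Control, 265 in Model and 155 in PD00, stepping down in that order, with PD00 2.35-fold below Control (2.30 to 2.40). Ly6a (Sca-1), a marker of progenitors and endothelium, stood at 157, 138 and 68.1 CPM, with PD00 2.31-fold below Control (2.23 to 2.38). Bst2 (tetherin, which holds budding virus on the cell) stood at 74.1, 73.4 and 53.7 CPM and was inside the threshold in all 3 comparisons. Ly6e, a membrane-anchored protein that hinders coronavirus entry, stood at 153, 229 and 142 CPM, with Model high and just inside the threshold against Control at 1.498-fold.

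The GBPs and immunity-related GTPases, which assemble on pathogen vacuoles, had 4 of 8 genes higher in Model than in Control, and the ratio was above 1 for 8 of 8. Gbp4 stood at 24.1 CPM in Control, 55.7 in Model and 23.1 in PD00, with Control and PD00 together and Model 2.31-fold above Control (2.19 to 2.44) and 2.41-fold above PD00 (2.28 to 2.55). Gbp3 stood at 13.8, 27.5 and 18.4 CPM, 1.99-fold higher in Model than in Control (1.85 to 2.15), with PD00 between the others. Gbp5 (1.61-fold, 1.41 to 1.84) and Igtp (1.69-fold, 1.56 to 1.82), the latter a GTPase of the IRG family, were the others higher in Model. Gbp7 had the most UMIs of the GBPs, at 52.9, 62.7 and 40.6 CPM, and was 1.54-fold lower in PD00 than in Model (1.48 to 1.61). Iigp1, an IRG effector encoded on chromosome 18, stood at 25.03, 28.3 and 15.9 CPM and was the only gene of this group lower in PD00 than in Control, 1.58-fold (1.47 to 1.70). With the class mix held equal the Iigp1 ratio turned to 1.08. Irgm1, a regulator of the IRG effectors, was 1.63-fold lower in PD00 than in Model (1.51 to 1.76). Gbp2, Gbp3, Gbp5 and Gbp7 are neighbours on chromosome 3, and Ifit1, Ifit2, Ifit3 and Ifit3b on chromosome 19, so they are not independent loci.

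**Figure D2:**
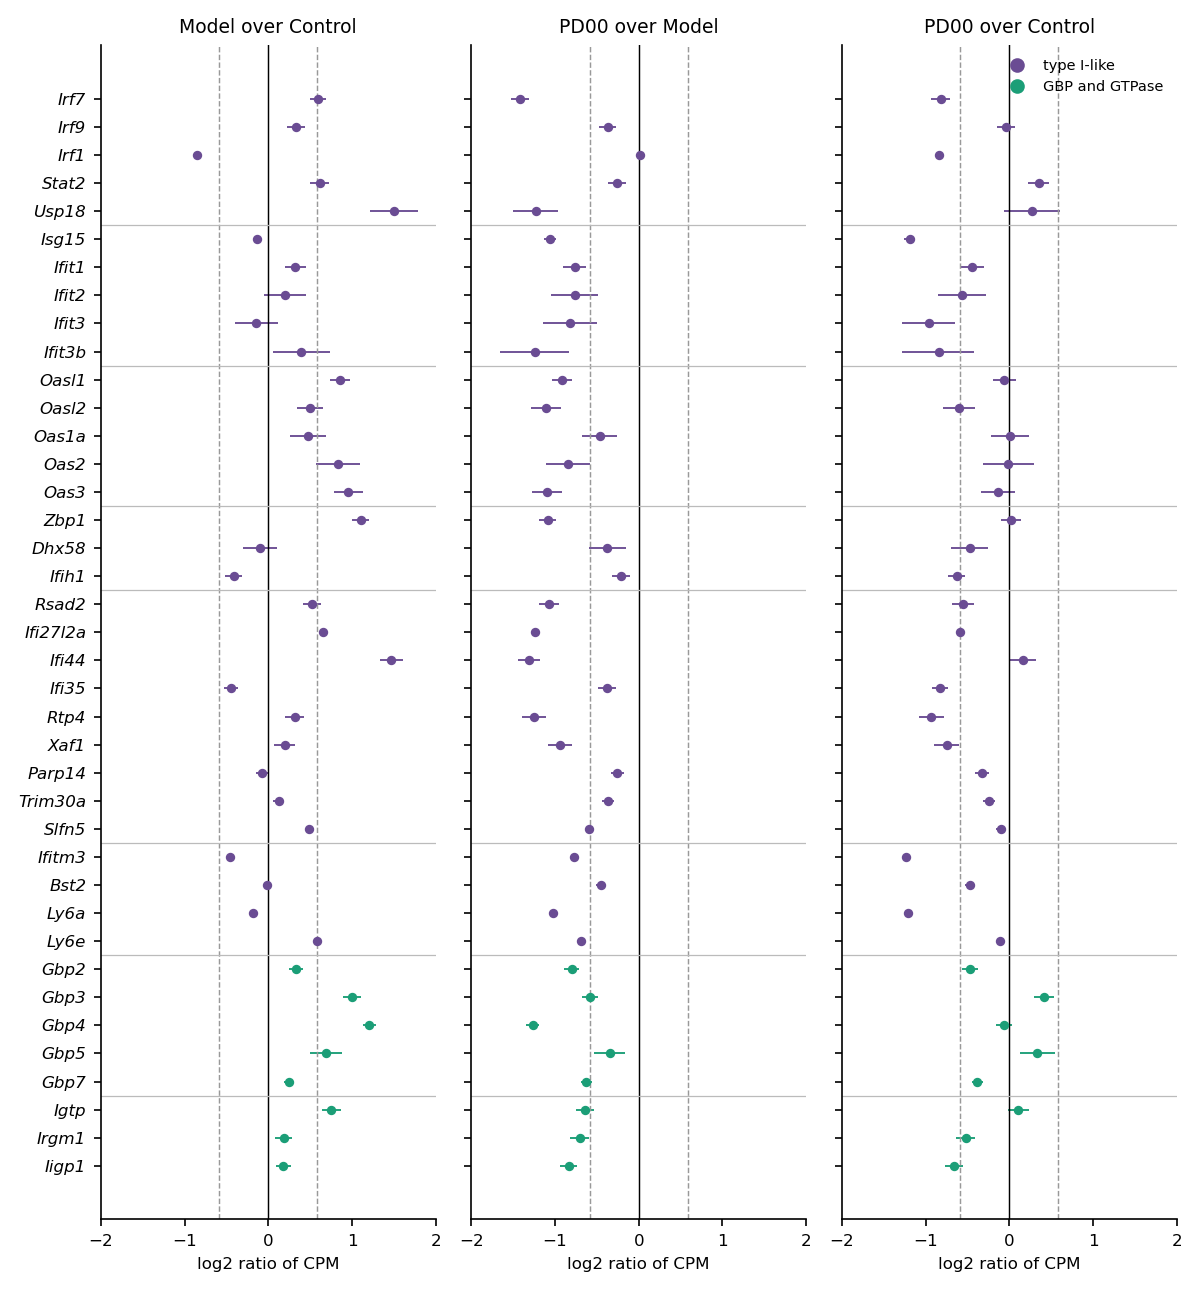
Log2 ratio of CPM for Model over Control, PD00 over Model and PD00 over Control, 1 panel each, for each of the 39 genes over all kept cells, with bars for the 95% counting interval, dashed lines at 1.5-fold and colours for the type I-like and the GBP and GTPase genes. For PD00 over Model 27 genes lie beyond the lower line and 0 beyond the upper, while for Model over Control 13 lie beyond the upper and 1, Irf1, beyond the lower.

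Summed over their group, the type I-like genes held 1549.6 CPM in Control, 1678 in Model and 973 in PD00, so that Control and Model lay close and PD00 was 1.73-fold below Model (1.71 to 1.74). The GBP and GTPase sum was 183, 264 and 153 CPM, 1.44-fold higher in Model than in Control (1.41 to 1.47) and 1.72-fold lower in PD00 than in Model (1.68 to 1.76). Few cells carried much of these sums. The 1% of cells with the most type I-like UMIs held 20.2% of them in Control, 18.9% in Model and 22.5% in PD00, and the corresponding 1% held 26.8%, 29.6% and 25.7% of the GBP and GTPase UMIs.

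Among the 12 classes with at least 50 cells in every library, endothelial cells, the lining of blood vessels, had the highest GBP and GTPase sum, at 1014 CPM in Control, 1923 in Model and 1250.0 in PD00. They also led the full type I-like sum, which includes the 4 membrane proteins, at 7921, 8604 and 7522 CPM. Nonclassical monocytes followed in Control (7548) and PD00 (4629) and neutrophils in Model (6794), with counting intervals that did not overlap those of endothelial cells. Classical monocytes, with at least 50 cells in Control and Model alone, stood higher, at 9776 and 9734 CPM. The lowest type I-like sums were those of ILC2 in Control (329 CPM) and of alveolar macrophages, the resident phagocytes of the airspace, in Model (499.9) and PD00 (329.8). Of the classes with at least 50 cells in both libraries, the type I-like sum of PD00 over Model was below 1 in 15 of 15, at least 1.5-fold lower in 7. The GBP and GTPase sum was below 1 in 15 of 15, at least 1.5-fold lower in 8, and its interval lay wholly below 1 in 9. For Model over Control, the GBP and GTPase sum was above 1 in 13 of 14 classes, the exception being interstitial macrophages (0.867, 0.749 to 1.01), and at least 1.5-fold higher in 8. The type I-like sum was above 1 in 8 and below 1 in 6 of 14, at least 1.5-fold higher in 3 (epithelial cells, red blood cells and ILC2) and lower in 1 (interstitial macrophages). The red blood cell gate, at 1.97, drew on unlike clusters, mainly cluster 15 in Control (23.3%) and cluster 21 in Model (40.6%), which also held 99.4% of the eosinophils of Model. Without Ifitm3, Bst2, Ly6a and Ly6e, the 4 membrane proteins, the type I-like sum of PD00 over Model stayed below 1 in 14 of 15, and endothelial cells were the exception at 1.05 (1.02 to 1.09). In that reduced sum neutrophils, not endothelial cells, ranked first of the 12 classes in every library, at 5458, 5348 and 3359 CPM. Endothelial cells stood there at 2308, 2712 and 2857 CPM. In gated endothelial cells the 9 neutrophil markers summed to 161, 174 and 448 CPM, highest in PD00, and their part in these values was not tested.

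**Figure D3:**
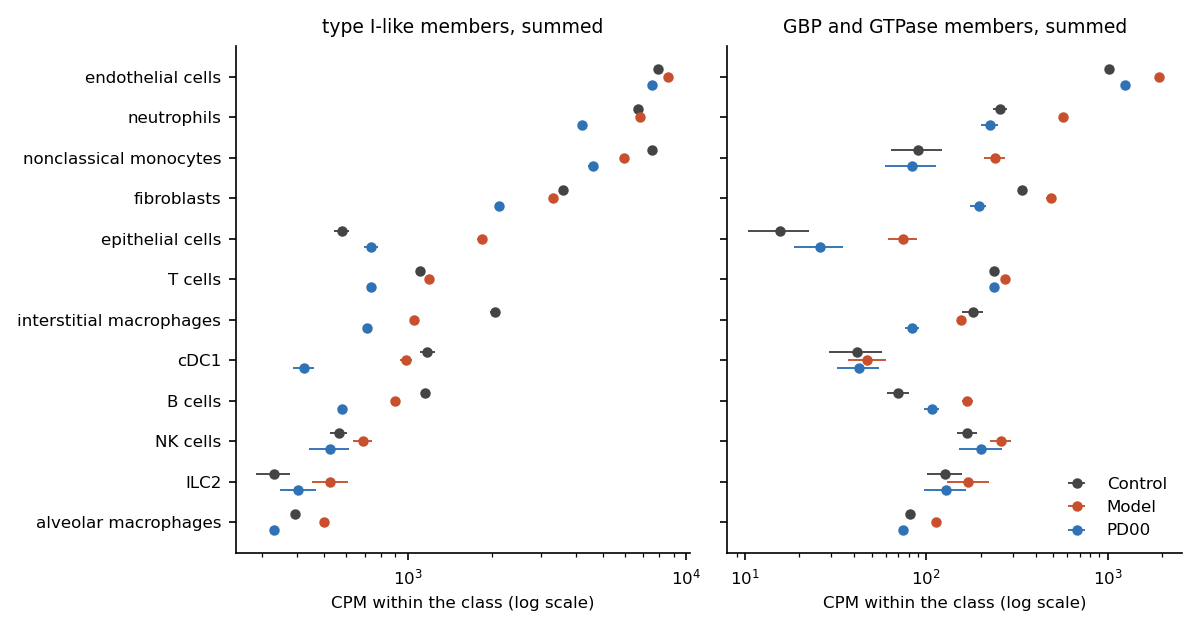
Summed level of the type I-like genes and of the GBP and GTPase genes in the 12 marker-gated classes with at least 50 cells in every library, in CPM on a log axis, with 1 point per library and bars for the 95% counting interval. Endothelial cells lead the GBP and GTPase panel in all 3 libraries, at 1014, 1923 and 1250.0 CPM, and PD00 lies below Model in each of the 12 classes for both groups of genes.

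Neutrophils, short-lived phagocytes of the blood, had a type I-like sum of 6732 CPM in Control, 6794 in Model and 4212 in PD00, and a GBP and GTPase sum of 256, 568 and 223 CPM. Control and Model were level for the type I-like sum (ratio 1.01, 0.986 to 1.03), and PD00 lay 1.61-fold below Model (1.57 to 1.66). Of 31 genes measured, 12 were higher and 0 lower in Model than in Control (background 22% and 7.48%), and 21 were lower in PD00 than in Model (background 5.3%). Oasl2 stood at 19.0 CPM in Control, 85.9 in Model and 19.0 in PD00, and Zbp1 at 37.4, 146 and 38.0, so for both genes Model alone was high. Their ratios of Model over Control were 4.53 (3.15 to 6.69) and 3.91 (3.01 to 5.14). Gbp2 was 2.88-fold lower in PD00 than in Model (2.42 to 3.44). Isg15 stood at 1744, 1222 and 780.0 CPM, stepping down from Control to PD00. Genes of immature neutrophil granules moved between these libraries: Camp stood at 103, 4229 and 3218 CPM, Ltf at 50.4, 1932 and 1480.1, and Ngp at 198, 6382 and 5127 in gated neutrophils. Within the largest neutrophil cluster alone, which held 98.4%, 80.8% and 79.5% of them, the type I-like sum of Model over Control was 1.28 (1.247 to 1.31) in place of 1.01, and the GBP and GTPase ratio 3.04 (2.73 to 3.39) in place of 2.22. PD00 over Model in that cluster was 0.586 (0.568 to 0.604) for the type I-like sum. Cluster 4, whose most common class was neutrophils, held 0.336%, 8.18% and 6.28% of the gated neutrophils. With 3, 78 and 47 cells it was under the minimum of 50 in Control and PD00. Cluster 21, whose most common class was eosinophils, held 0.785%, 10.5% and 13.8%. Its gated neutrophils had type I-like sums of 1411 CPM in Model and 733 in PD00. The median per cell was 5992 UMIs in cluster 4 and 822.5 in cluster 21. The part of either cluster in the class ratios was not tested.

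In T cells, the type I-like sum was 1101 CPM in Control, 1189 in Model and 735 in PD00, with PD00 1.62-fold below Model (1.57 to 1.67), and the GBP and GTPase sum was 238, 273 and 235 CPM. Of 32 genes measured, 10 were higher and 0 lower in Model than in Control (background 21.3% and 7.43%), a share of higher genes not far from the background, and 13 of 30 were lower in PD00 than in Model (background 2.61%). Ly6a stood at 14.8, 26.4 and 5.10 CPM, 5.18-fold lower in PD00 than in Model (3.82 to 7.16), and Rtp4 at 7.07, 10.8 and 3.08, 3.51-fold lower (2.34 to 5.43). Ifi27l2a, at 530.0, 552 and 289 CPM, was level between Control and Model and 1.91-fold lower in PD00 than in Model (1.83 to 1.996). Different clusters held most T cells of each library, cluster 15 in Control (71.7%) and cluster 25 in Model (31.8%) and PD00 (40.2%). In the 6 clusters with at least 50 T cells in both libraries, the type I-like sum of PD00 over Model was below 1, from 0.543 in cluster 25 to 0.720 in cluster 27, beside 0.618 for the class. The GBP and GTPase sum was below 1 in 5 of them and 1.11 (0.998 to 1.23) in cluster 27. Model over Control for the type I-like sum differed between clusters: it was 1.51 (1.34 to 1.71) in cluster 0, 0.974 (0.874 to 1.09) in cluster 11, 0.628 (0.588 to 0.670) in cluster 16 and 0.733 (0.690 to 0.780) in cluster 24, beside 1.08 for the class. Cluster 0 was mainly an NK cell cluster, with 720 NK cells among its 1120 gated cells. T cells were the most common class in clusters 11, 16 and 24.

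In B cells the 2 groups of genes ran apart. The type I-like sum was 1156 CPM in Control, 897 in Model and 582 in PD00, stepping down, while the GBP and GTPase sum was 69.9, 168 and 107 CPM, 2.41-fold higher in Model than in Control (2.06 to 2.83). Of 22 genes measured 7 were higher and 3 lower in Model than in Control (background 13.5% and 8.76%), and 11 of 22 were lower in PD00 than in Model (background 2.79%). Gbp7 stood at 18.1, 73.2 and 45.5 CPM, and Gbp3 at 5.56, 20.3 and 14.6, so Control was the low library for both. Their ratios of Model over Control were 4.05 (3.02 to 5.53) and 3.66 (2.14 to 6.65). Ifi27l2a stood at 448, 281 and 146 CPM, 3.07-fold lower in PD00 than in Control (2.78 to 3.39). Between 97.2% and 99.6% of the B cells of each library lay in cluster 1, where the GBP and GTPase ratio of Model over Control was 2.38.

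In alveolar macrophages the type I-like sum was 392 CPM in Control, 499.9 in Model and 329.8 in PD00, and the GBP and GTPase sum 81.0, 114 and 74.8, so both sums were highest in Model and lowest in PD00. Of 34 genes measured, 20 were higher and 3 lower in Model than in Control (background 14.6% and 25.7%), and 19 were lower in PD00 than in Model (background 4.17%). Usp18 was found in 2, 62 and 37 UMIs, a ratio of Model over Control of 71.4 with an interval of 19.0 to 603. Ifi44 stood at 0.534, 8.30 and 2.65 CPM, 15.5-fold higher in Model than in Control (9.98 to 25.2) and 3.12-fold lower in PD00 than in Model (2.37 to 4.15), so PD00 lay between. Ifi27l2a stood at 25.02, 119 and 51.3 CPM with the same order. Irf1, at 93.7, 45.3 and 49.8 CPM, and Ifi35, at 21.9, 11.4 and 9.85, were highest in Control. Control cells of this class lay mainly in cluster 5 (95.2%) and those of Model and PD00 in cluster 8 (76.7% and 79.6%), which held 2 Control cells. Cluster 7 held 132, 39 and 42 cells of the class, under the minimum of 50 in Model and PD00, so Model and Control were not compared within a cluster. Markers of other classes moved with Model here: 7 interstitial macrophage markers summed to 29.0, 275 and 224 CPM and 8 T cell markers to 10.8, 68.6 and 34.8 CPM in gated alveolar macrophages, and their part in the result was not tested. Within clusters 8 and 10 the type I-like sum of PD00 over Model was 0.671 and 0.666, against 0.660 for the class.

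Interstitial macrophages, which live in the lung tissue rather than in the airspace, had the opposite direction from alveolar macrophages for Model over Control, a difference between classes that was not tested. Their type I-like sum was 2051 CPM in Control, 1047 in Model and 712 in PD00, 1.96-fold lower in Model than in Control (1.87 to 2.05). Of 36 genes measured, 2 were higher and 12 lower in Model than in Control (background 19.6% and 17.1%), and 22 were lower in PD00 than in Model (background 3.84%). Isg15 stood at 181, 28.6 and 31.6 CPM, 6.31-fold lower in Model than in Control (5.23 to 7.62), and Ifitm3 at 413, 99.0 and 55.5, 4.17-fold lower (3.73 to 4.67). Ifi44 was 2.73-fold lower in PD00 than in Model (2.16 to 3.48). Iigp1 stood at 29, 187 and 6 UMIs, but 54 of the 187 Model UMIs came from 1 cell, so its 22.3-fold lower value in PD00 rests on few cells. The 9 neutrophil markers in this class summed to 1029 CPM in Control, 276 in Model and 308 in PD00, with Control highest as for Isg15 and Ifitm3, and their part in the result was not tested. Most cells of all 3 libraries lay in cluster 9 (97.4%, 83.8% and 85.3%), and within it the type I-like sum was 0.558 for Model over Control and 0.670 for PD00 over Model.

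Nonclassical monocytes, which patrol vessel walls, had 16 genes measured, of which 5 were higher and 1 lower in Model than in Control (background 11.3% and 8.73%), and 6 of 18 were lower in PD00 than in Model (background 6.11%). Irf7 stood at 123, 324 and 179 CPM and Gbp2 at 20.2, 69.0 and 27.1, so Model was high for both, 2.63-fold (1.96 to 3.57) and 3.42-fold (1.69 to 7.84) above Control. Ifitm3 stood at 3493, 1892 and 1558 CPM with Control high. The 9 neutrophil markers in this class summed to 1623, 620.2 and 808 CPM, also with Control high, and their part in the result was not tested. These values rest on 95, 175 and 85 cells. In cDC1, dendritic cells specialised in cross-presentation, 10 of 14 genes were lower in PD00 than in Model (background 3.6%), and Ifi27l2a stood at 308, 235 and 39.5 CPM. In gated cDC1 the 8 T cell markers summed to 46.0, 148 and 23.9 CPM, the 6 fibroblast markers to 15.0, 176 and 6.71 and the 9 neutrophil markers to 639, 224 and 170.0, and their part in these values was not tested.

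In endothelial cells the GBP and GTPase sum was 1.90-fold higher in Model than in Control (1.82 to 1.97) and the type I-like sum 1.09-fold (1.07 to 1.1045). Of 34 genes 10 were higher and 0 lower in Model than in Control (background 5.34% and 11.1%), and 4 of 33 were lower in PD00 than in Model (background 4.69%). Gbp4 stood at 207 CPM in Control, 790.0 in Model and 320.1 in PD00, 3.81-fold higher in Model than in Control (3.52 to 4.12) and 2.47-fold lower in PD00 than in Model (2.27 to 2.68). Slfn5 stood at 624, 1024 and 1021 CPM, so PD00 lay with Model and 1.64-fold above Control (1.55 to 1.73). Within the endothelial clusters 12 and 14 the GBP and GTPase sum of Model over Control was 1.81 and 1.93.

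Fibroblasts, the matrix-forming cells, had 8 of 29 genes higher and 2 lower in Model than in Control (background 7.62% and 16.1%), and 18 of 25 lower in PD00 than in Model (background 6.44%). Slfn5 stood at 24.6, 103 and 17.3 CPM, with Model alone high. Ifit1 stood at 41.1, 86.2 and 6.62 CPM, 13.02-fold lower in PD00 than in Model (7.41 to 24.95), and 26 of its 169 Model UMIs came from 1 cell. In gated fibroblasts the 9 neutrophil markers summed to 699, 250 and 247 CPM, with Control high, and their part in these values was not tested. Epithelial cells had 9 of 11 genes higher and 1 lower in Model than in Control, but 36.3% of all genes were higher there and 5.64% lower. PD00 over Model was lower for 12 of 15, against a background of 27.1%. Ly6a in epithelial cells stood at 128, 612 and 234 CPM, and 37 of the 79 Ifit1 UMIs of Model came from 1 cell. In gated epithelial cells the neutrophil markers summed to 146, 659 and 431 CPM and the interstitial macrophage markers to 21.9, 141 and 48.6, and their part in these values was not tested.

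**Figure D4:**
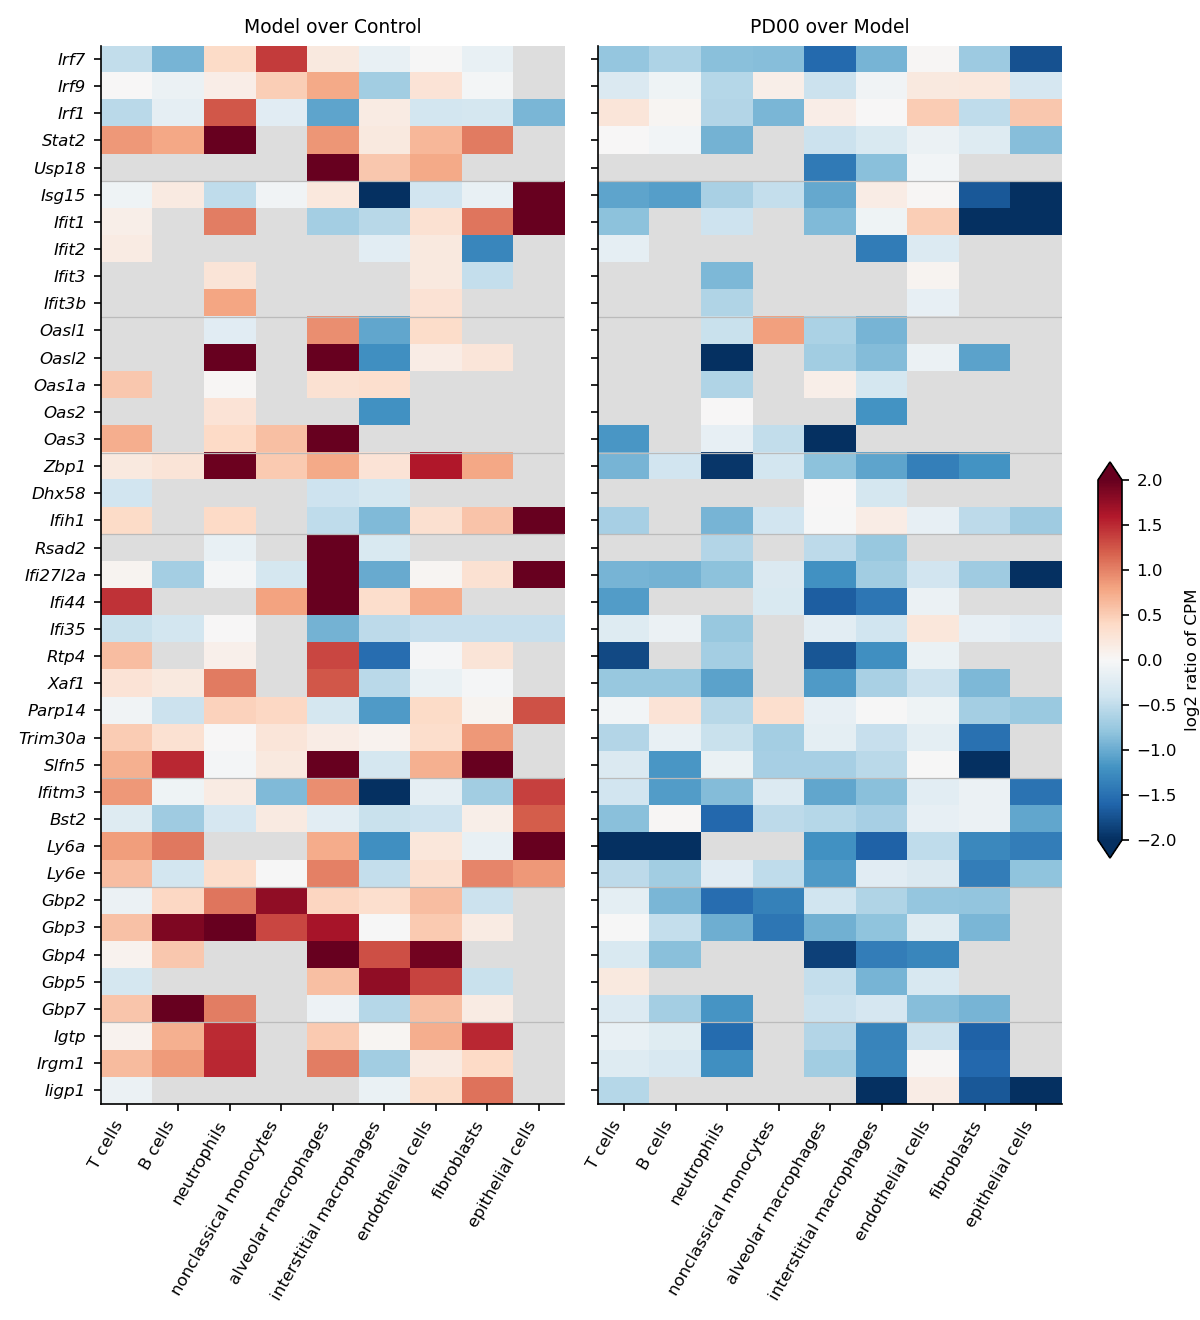
Log2 ratio of each of the 39 genes (rows) by cell class (columns), for Model over Control and for PD00 over Model, with colours that saturate at a log2 ratio of 2 either way and grey for fewer than 50 UMIs over both libraries. The columns are T cells, B cells, neutrophils, nonclassical monocytes, alveolar and interstitial macrophages, endothelial cells, fibroblasts and epithelial cells. PD00 over Model is below 1 for 30 of 31 genes measured in neutrophils and 24 of 33 in endothelial cells, and Model over Control is above 1 for 26 of 34 genes in alveolar and 11 of 36 in interstitial macrophages.

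To set cells of unlike depth side by side, each cell was thinned to 1000 UMIs and counted when it held at least 3 UMIs of the 27 type I-like genes other than the 4 membrane proteins. Over all cells this was 13.1% in Control, 14.5% in Model and 7.56% in PD00, where the unthinned shares were 57.1%, 51.1% and 42.9%. Thinning left out 304, 1353 and 1098 shallower cells. In neutrophils the thinned shares were 62.1%, 64.7% and 46.3% (unthinned 79.8%, 76.1% and 59.9%), with Control and Model intervals that overlap (58.7% to 65.4% and 61.4% to 68.0%) and PD00 below both (42.3% to 50.3%). In T cells they were 9.88%, 9.62% and 4.23% (unthinned 46.1%, 48.6% and 30.4%), so PD00 again stood below the other two libraries. In interstitial macrophages they were 21.9%, 8.68% and 6.33% (unthinned 79.8%, 79.5% and 66.4%), with Control high, and in B cells 7.52%, 2.77% and 1.03% (unthinned 32.1%, 37.1% and 26.8%). In endothelial cells they were 31.6%, 45.6% and 39.9% (unthinned 82.7%, 85.8% and 88.2%), and the share with at least 3 GBP and GTPase UMIs was 8.83%, 25.1% and 16.6% (unthinned 60%, 66.9% and 60.5%). Alveolar macrophages were among the lowest, at 0.830%, 1.34% and 0.257% (unthinned 69.2%, 83.5% and 73.2%). No class of these lungs is known to lack these genes, so a level due to free RNA in the droplets was not separated from expression, and droplets without cells were not analysed here.

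**Figure D5:**
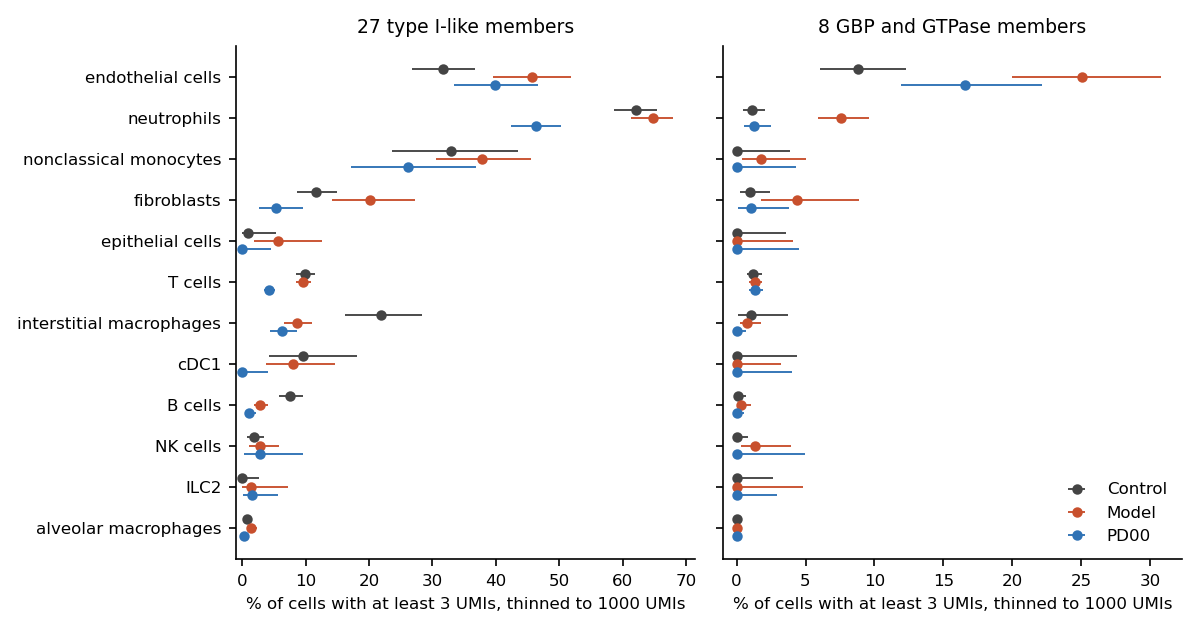
Share of cells with at least 3 UMIs of the type I-like genes without the 4 membrane proteins, and of the GBP and GTPase genes, after each cell was thinned to 1000 UMIs, by class and library with exact 95% binomial intervals. The classes drawn have at least 50 cells in every library, and among them neutrophils have the largest type I-like share, at 62.1%, 64.7% and 46.3%, and endothelial cells the largest GBP and GTPase share.

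Of the interferons themselves, Ifng was found in 456 UMIs in Control, 331 in Model and 107 in PD00. NK cells held 45.6% and T cells 40.4% of the Control UMIs, and T cells held 49.8% of those in Model and 68.2% in PD00. The libraries held 445, 220 and 75 gated NK cells and 1676, 2570 and 2038 gated T cells. The part of cell number in the Ifng totals was not tested. Ifnb1, encoding interferon beta, was found in 43, 29 and 12 UMIs, most often in interstitial macrophages, and up to 13 of these came from 1 cell. Ifna1, Ifna2, Ifna5, Ifnl2, Ifnl3 and Ifne had 0 UMIs in all 3 libraries, which allows levels of up to 0.0389, 0.0376 and 0.0390 CPM, while Ifna4 had 1 UMI in Control and Ifnk had 13, 4 and 2. Among the receptors, Ifnar1 stood at 49.1, 80.5 and 71.7 CPM and Il10rb, a subunit of the interferon lambda receptor, at 39.0, 59.5 and 58.1, both higher in Model than in Control (1.64-fold and 1.53-fold). Ifnar2 (65.1, 72.3 and 62.1 CPM), Ifngr1 (198, 192 and 210) and Ifngr2 (57.0, 80.1 and 75.6) were within the threshold. For PD00 over Model 0 of 6 receptors were lower, beside 7.38% of all genes, and 6 genes are too few to set apart from that share. Ifnlr1 stood at 0.233, 0.351 and 0.364 CPM.

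Among the signalling genes, the kinase Jak2 stood at 47.1, 100 and 94.3 CPM, 2.13-fold higher in Model, and the feedback inhibitor Socs1 at 12.7, 21.5 and 16.3, 1.70-fold higher. Of 12 genes that sense nucleic acid or switch on interferon production, 6 were lower in Model than in Control and 0 were lower in PD00 than in Model, beside 18.2% and 7.38% of all genes. Among them the RNA receptor Tlr7 stood at 51.0, 17.9 and 21.6 CPM, the adaptor Mavs at 26.1, 13.1 and 14.9, and the adaptor Myd88 at 61.5, 34.8 and 32.5, each with Control alone high. Of 54 other type I-like genes measured, 10 were higher and 7 lower in Model than in Control and 17 were lower in PD00 than in Model. Over all genes 12.4% were higher and 18.2% lower in Model than in Control, near the shares of this list, and 7.38% were lower in PD00 than in Model. Ifi44l stood at 1.31, 5.03 and 1.82 CPM and Ms4a4c at 11.7, 18.5 and 5.75. Of 21 other GBP, GTPase and interferon gamma-type genes, 8 were higher and 1 lower in Model than in Control and 13 were lower in PD00 than in Model, beside 12.4%, 18.2% and 7.38% of all genes. Serpina3g stood at 5.90, 49.2 and 21.1 CPM, 8.34-fold higher in Model than in Control. Nlrc5, the transactivator of MHC class I genes, stood at 5.98, 15.8 and 10.5 CPM, with PD00 between Control and Model.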

How the data were processed

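Lung cells of 3 libraries were profiled by droplet 3′ single-cell RNA-seq. The deposited matrices hold raw UMI counts per gene and cell. Per the file headers they came from cellranger 5.0.0, while the submitters' processing notes name Cell Ranger 3.1.0, STAR and mm10. Which version made the files was not settled. The members and lists were chosen with earlier results of these data known. Cells with under 500 UMIs, under 200 genes, over 20% mitochondrial UMIs or a Scrublet doublet score over 0.2 were removed. Cells were gated into 23 classes by 161 marker genes: a cell needed UMIs of at least 1 in 3 markers of its class, a class score of 0.15 and 1.25 times that of the next class. Clusters (Leiden, resolution 1) in which no class reached 25% of the cells were set apart. These gate settings were chosen after the data were seen. UMI counts were summed per library and class with scanpy 1.11.5, numpy 2.4.6, scipy 1.17.1 and pandas 2.3.3 in Python 3.11.15. Ratios carry exact conditional binomial (Clopper-Pearson) 95% intervals, with a count of 0 set at 3 UMIs, and the procedure was tested on simulated data. Those data were Poisson sums per gene, the spread the intervals assume. The check therefore says nothing of UMIs held by few cells or of the spread between mice. Genes given with values were those with an interval wholly beyond 1.5-fold, up to 5 each way per comparison over all cells and up to 3 in the largest immune classes, and the member with the most UMIs in each role group; further values are summaries. Other members that complete a role group or show a contrast were named after their values were seen. Class sums needed at least 50 cells in each library. The counts over the list of signalling genes are not reported here.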

Additional observations from a re-analysis of the deposited data

Results flagged for a closer look

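The summed type I-like level moved in opposite directions in different cell classes between the Model and Control libraries. It was 3.19-fold in epithelial cells (interval 2.97 to 3.42) and 0.511-fold in interstitial macrophages (0.488 to 0.535). These classes were picked because their intervals lay farthest from 1 each way. In epithelial cells 36.3% of all genes were at least 1.5-fold higher in Model, and neutrophil markers summed to 146 CPM in Control and 659 in Model. In interstitial macrophages those markers summed to 1029 and 276 CPM, and their part was not tested. The difference between the classes was not tested, because each treatment had 1 library.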

How the results depend on the processing

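No paired analysis was possible because each treatment had 1 library. Of 14 single members past 1.5-fold for Model over Control, 152 of 154 values under the alternatives kept their direction, as did 297 of 297 for the 27 members of PD00 over Model (278 still past the threshold) and 153 of 154 for the 14 of PD00 over Control. The summed class levels past the threshold kept their direction in 61 of 61, 91 of 91 and 66 of 66 values. The exceptions came with 1 fixed class mix, averaged over 16 classes: Oasl1 (0.944) and Ifi27l2a (0.905) for Model over Control and Iigp1 (1.08) for PD00 over Control. That mix left 0 members lower in Model than in Control (14.7% of all genes) and 15 lower in PD00 than in Model (5.77%). It left 9 lower and 1 higher in PD00 than in Control, where 14.4% and 10.5% of all genes were. Its median log2 ratios were 0.17 (type I-like, Model over Control), -0.50 (type I-like, PD00 over Model), -0.50 (GBP and GTPase, PD00 over Model) and 0.0739 (GBP and GTPase, PD00 over Control). At a 2-fold threshold, 4 members were higher and 0 lower in Model than in Control, 13 were lower in PD00 than in Model and 3 in PD00 than in Control, where 6.98%, 8.04%, 3.27% and 9.16% of all genes were. Median-of-ratios scaling moved the median of all genes from -0.13 to 0.00 for Model over Control and the calls from 12.4% higher and 18.2% lower to 15.5% and 13.8%. The type I-like and GBP and GTPase medians were then 0.46 and 0.64 for Model over Control, and the GBP and GTPase median -0.0829 for PD00 over Control, where calls over all genes went from 10.5% and 19.8% to 13.5% and 15.4%. The type I-like median of Model over Control was 0.47 without ungated cells and 0.53 without endothelial cells, and the GBP and GTPase median of PD00 over Control was -0.14 without endothelial cells. Leaving out the 1% of cells with the most member UMIs gave 1 member higher in PD00 than in Control, where 10.9% of all genes were. Alternatives that left out ungated, mixed-cluster, shared-barcode or endothelial cells were chosen after seeing the data. The cause of these shifts was not tested. Depth limits the low genes: a member with 0 UMIs could stand at up to 0.0390 CPM over all cells.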
